A study of Homo sapiens with 15 samples.

Results

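The 9 genes described here encode enzymes that interconvert glutamine, glutamate, asparagine and proline, together with the transaminases that move the amino group of glutamate: GLS2, GLUL, GLUD1, GOT1, GOT2, GPT2, ASNS, ALDH18A1 and PYCR1. They were taken by name, from the gene name of a probe or its current symbol in RefSeq, and are measured by 15 of the 41000 probes and make up 9 of the 30992 genes on the arrays. All samples are MDA-MB-231 cells, an established line of triple-negative breast cancer. The arrays hold 5 biological replicates each of shCtBP2 cells, which carry a stably transfected short hairpin RNA against CtBP2 and were selected for it, of cells exposed to HIPP for 24 h and of cells exposed to P4 for 24 h. CtBP2 is an NADH-binding transcriptional corepressor, and HIPP and P4 are small molecules made to inhibit it, the oxime and the hydrazone of phenylpyruvate. On every array the treated RNA (Cy5) was hybridized together with control RNA (Cy3), with no array in the opposite dye orientation, so that the effect of a dye on a probe cannot be told apart from that of the treatment. The labels give untreated cells as the control throughout, while the methods of the study set shCtBP2 cells against cells with a scrambled hairpin. Neither the labels nor the array methods state the concentrations of HIPP and P4 in the array samples, and in the growth assays of the study the compounds were given at different ones. Their values are therefore set side by side without a test between the compounds.

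Glutamine is the main carrier of nitrogen in cultured cells. Glutaminases such as GLS2 release its amide as ammonia and leave glutamate, and GLUL, glutamine synthetase, runs the opposite reaction. Glutamate is turned into 2-oxoglutarate either by GLUD1, glutamate dehydrogenase, or by transaminases, which pass its amino group to oxaloacetate (GOT1 in the cytosol, GOT2 in the mitochondria) or to pyruvate (GPT2). ASNS builds asparagine from aspartate with the amide of glutamine. ALDH18A1 and PYCR1 carry out the first and the last step from glutamate to proline. ASNS is a textbook target of the transcription factor ATF4, which cells make when amino acids are short or when their endoplasmic reticulum is under stress.

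Every value below is a log2 ratio of treated to control signal, the mean of the 5 arrays of a treatment, and errors are SDs over these arrays. A change is called when limma's adjusted p is below 0.05 and the fold change reaches the limit that the study's methods set for the treatment, 1.5 for shCtBP2, 2.5 for HIPP and 1.8 for P4. Depending on the array, 65.2 to 77.5% of the gene spots stood well above background in the treated channel and 64.9 to 81.0% in the control channel. VIM, CD44, AXL, CAV1, FN1 and ZEB1, which mark mesenchymal breast cancer lines, were well above background in all 30 channels, and PGR, CDH1 and KRT5, which mark luminal or basal epithelium, in 0 of 30. Of the other epithelial markers, EPCAM, GATA3, CDH3 and 1 of 2 probes of KRT14 were well above background in all 30 channels, ESR1 in 23 on its best spot and TP63 in 4. The targeted gene, CTBP2, was lower on 5 of 5 shCtBP2 arrays, at 75.4% of the control signal (−0.41 ± 0.11, limma adjusted p = 0.0595), and passed neither limit. With HIPP it was higher on 5 of 5 arrays and passed the adjusted limit (0.57 ± 0.36, 1.49-fold, limma adjusted p = 0.00256), and with P4 it had 0.17 ± 0.35 (limma adjusted p = 0.344). These CTBP2 values are averages over the probes of the gene. By real-time PCR and western blot the study itself reports significant falls of CtBP2 mRNA and protein in shCtBP2 cells, against scramble cells. The arrays lie on 4 slides, with P4 replicates 1 to 4 on slide 1, P4 replicate 5 and HIPP replicates 1 to 3 on slide 2, HIPP replicates 4 and 5 and shCtBP2 replicates 1 and 2 on slide 3, and shCtBP2 replicates 3 to 5 on slide 4. Slide 1 was scanned on day 1 and the other slides on day 2, so P4 is largely confounded with scan day. In fits with slide as a block, P4 is tied to the other slides only through P4 replicate 5, which limits what those fits can show for P4.

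Both compounds were accompanied by a higher signal of ASNS, PYCR1 and GPT2 and a lower signal of GOT2. The means of GLUL and GLUD1 were highest with P4, at 1.35-fold and 1.33-fold, and the signal of GLS2 was not well above background in most channels of the shCtBP2 arrays. In shCtBP2 cells 5 of the 9 genes were tested, of which ASNS passed the adjusted limit as higher, GOT2 passed it as lower and 0 were called. Of the 27582 genes tested there, 13.5% passed (6.59% higher, 6.95% lower) and 6.57% were called (3.34% higher). With HIPP 6 were tested, 5 passed (4 higher, 1 lower) and 1 was called, as higher, while 48.7% of all genes passed (24.9% higher, 23.9% lower) and 7.05% were called (3.43% higher). With P4 all 9 were tested, 6 passed (5 higher, 1 lower) and 3 were called, all as higher, while 31.9% of all genes passed (17.1% higher, 14.8% lower) and 8.46% were called (4.29% higher). The median log2 ratio of the 9 genes was 0.05 for shCtBP2, 0.35 for HIPP and 0.42 for P4, beside 0.04, 0.08 and 0.11 over all genes tested. The study's methods leave out genes whose signals vary least within a treatment, by their interquartile range, and this filter took out GOT1, GPT2, ALDH18A1 and PYCR1 in shCtBP2 cells and GLUL, GOT1 and ALDH18A1 with HIPP.

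**Figure D1:**
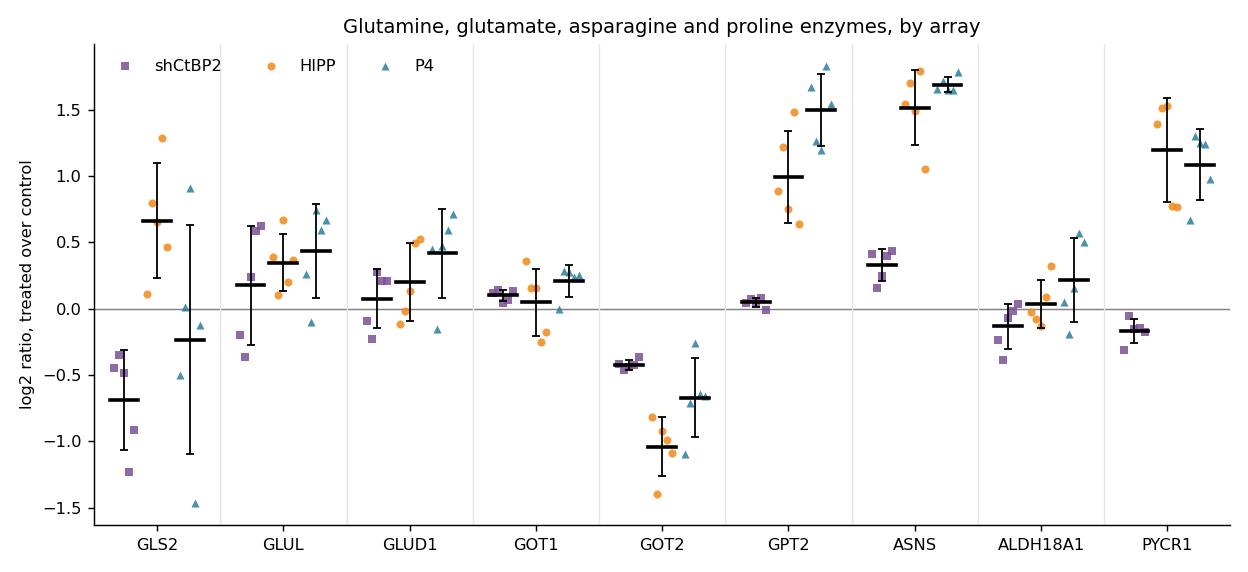
Log2 ratio of treated over control signal (vertical axis) of the 9 enzymes for shCtBP2 (squares), HIPP (circles) and P4 (triangles). Each point is 1 array, and bars give the mean and SD of 5 arrays. ASNS, GPT2 and PYCR1 lie above 0 on every HIPP and P4 array, and GOT2 lies below 0 on all 15 arrays.

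ASNS, asparagine synthetase, gave the highest mean ratio of the 9 genes in each treatment. In shCtBP2 cells that was 0.33, and the ratios of GLS2 (−0.69) and GOT2 (−0.42), below 0, were larger in size. The size of the ASNS ratio depends on which of its probes is read. Probe A_23_P145694, made to the RefSeq mRNA (hg17, chromosome 7, 97126112 to 97126171, minus strand), was bright, with a control signal of 8817 to 21490 over all arrays. Probe A_32_P232747, made to a cDNA clone that the array annotation itself marks as chimeric, lies 56615 bases away (97182787 to 97182846) and had a control signal of 19.2 to 70.6. The RefSeq promoter table holds 2 windows for ASNS, and the upstream part of one is printed because it carries the composite element at which C/EBP and ATF proteins bind, searched as TGATGNAAN on both strands (chr7:97872409-97872658, GRCh38.p14, minus strand, the 250 bases before the transcript start, match in capitals).
ASNS promoter: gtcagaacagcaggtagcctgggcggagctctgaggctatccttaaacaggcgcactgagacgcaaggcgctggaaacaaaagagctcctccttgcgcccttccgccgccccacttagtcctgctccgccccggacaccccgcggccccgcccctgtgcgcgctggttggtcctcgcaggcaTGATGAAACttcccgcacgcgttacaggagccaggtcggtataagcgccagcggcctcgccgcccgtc
The element starts 68 bases before the transcript start and is on the strand of the gene. Of all 35116 promoter windows of 300 bases in the table, 3.61% hold a match on either strand. Windows were found for 7 of the 9 genes, 9 windows in all, and 2 of them hold the element, the other being that of GOT1, where it lies on the opposite strand and starts 199 bases before the transcript start. The E-box CACGTG was found in 1 of the 9 windows, that of ALDH18A1, and in 7.26% of all windows.

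In shCtBP2 cells the RefSeq probe of ASNS gave log2 ratios of 0.70, 0.66, 0.74, 1.07 and 0.80 on replicates 1 to 5. With HIPP it gave 3.11, 3.35, 3.23, 2.90 and 1.95, and with P4 3.35, 3.32, 3.29, 3.22 and 3.48. All 15 arrays were thus above 0, the 5 shCtBP2 arrays lay below every HIPP and P4 array, and the P4 arrays were the tightest. A ratio above 0 on 5 of 5 arrays was found among all genes for 19.9% (shCtBP2), 24.5% (HIPP) and 16.6% (P4). The means were 0.79 ± 0.16 (1.73-fold, limma adjusted p = 0.0033 over all probes), 2.91 ± 0.56 (7.51-fold, limma adjusted p = 5.08e-09) and 3.33 ± 0.10 (10.1-fold, limma adjusted p = 8.09e-09). The treated signal reached 82500 to 182300 with HIPP and 88030 to 127900 with P4, and 0 spots were saturated. With mean signals that were not corrected for background, the shCtBP2 value of 1.05 missed the adjusted limit (limma adjusted p = 0.0652). The clone probe gave −0.14 ± 0.22, 0.12 ± 0.35 and 0.05 ± 0.06. Averaged over both probes, ASNS had 0.33 ± 0.12 in shCtBP2 cells (limma adjusted p = 0.033), 1.51 ± 0.28 with HIPP (limma adjusted p = 2.08e-08) and 1.69 ± 0.06 with P4 (limma adjusted p = 5.69e-08), so that in shCtBP2 cells the RefSeq probe was called and the average was not. The average also missed the adjusted limit there when shCtBP2 replicate 1, 3, 4 or 5 was left out (limma adjusted p = 0.0613 to 0.107).

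The change of ASNS was larger with each compound than in shCtBP2 cells. For the RefSeq probe the difference of log2 ratios was 2.12 ± 0.21 (SE) between HIPP and shCtBP2 (limma adjusted p = 5.55e-06) and 2.54 ± 0.21 (SE) between P4 and shCtBP2 (limma adjusted p = 5.86e-06). HIPP replicates 4 and 5, on slide 3, had the lowest ratios of their treatment. On slide 3 alone the probe gave 2.43 with HIPP and 0.68 in shCtBP2 cells (2 arrays each), and on slide 2 it gave 3.23 with HIPP (3 arrays) and 3.48 with P4 (1 array). With slide as a block the ratios were 1.08 for shCtBP2 (limma adjusted p = 0.0143), 2.83 for HIPP (limma adjusted p = 9.19e-07) and 3.08 for P4 (limma adjusted p = 0.000235), and the differences from shCtBP2 were 1.75 (limma adjusted p = 0.00124) and 2.00 (limma adjusted p = 0.0373). For the average of both probes neither the ratio in shCtBP2 cells (0.35, limma adjusted p = 0.22) nor the difference between P4 and shCtBP2 (1.34, limma adjusted p = 0.0609) passed with the block.

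**Figure D2:**
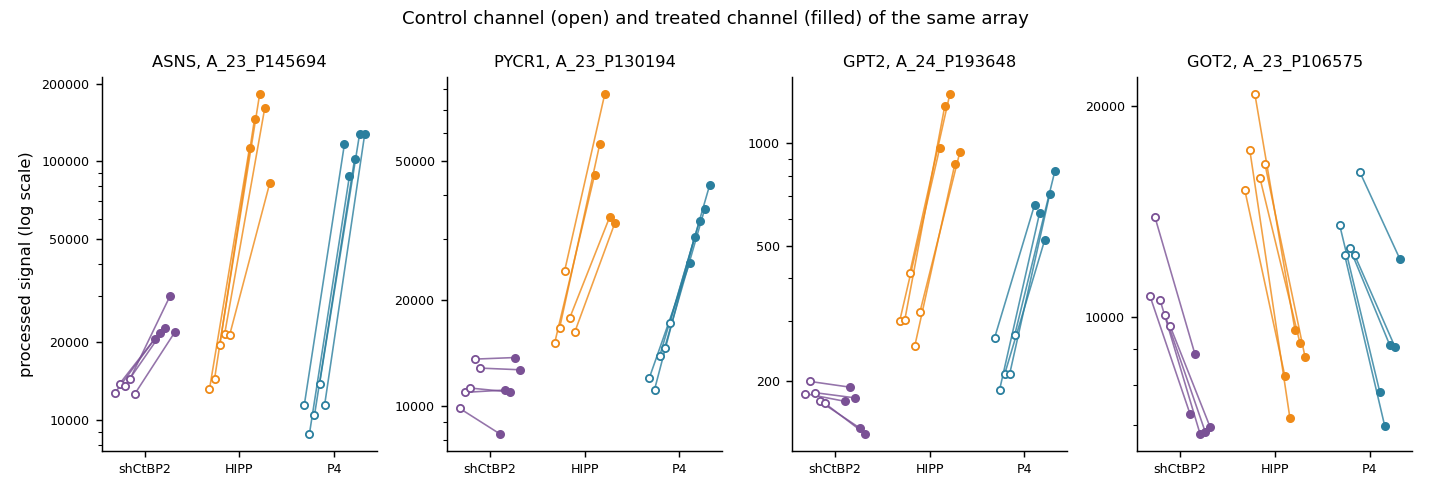
Processed signal (vertical axis, log scale) of 1 probe each of ASNS, PYCR1, GPT2 and GOT2, with the control channel (open) joined to the treated channel (filled) of the same array. With HIPP and P4 the treated signal of ASNS probe A_23_P145694, PYCR1 probe A_23_P130194 and GPT2 probe A_24_P193648 exceeds the control signal on all 10 arrays, and that of GOT2 probe A_23_P106575 is below it on all 15 arrays. The other GPT2 probe, not drawn, is below its control on HIPP replicates 3 and 5.

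PYCR1, pyrroline-5-carboxylate reductase, was higher with both compounds. Its probes lie on chromosome 17 (hg17, 77483622 to 77483681 and 77484474 to 77484533, minus strand). Probe A_23_P130194 gave −0.24, 0.02, −0.04, 0.01 and −0.02 in shCtBP2 cells, 1.60, 1.74, 1.67, 0.96 and 1.03 with HIPP and 1.08, 1.45, 1.29, 1.32 and 1.32 with P4. The shCtBP2 arrays lay around 0, apart from all HIPP and P4 arrays, and HIPP replicates 4 and 5 were again the lowest. The dimmer probe A_24_P204358 gave 0.98 ± 0.41 with HIPP and 0.88 ± 0.42 with P4, against 1.40 ± 0.37 and 1.29 ± 0.13 for A_23_P130194. Without HIPP replicate 2 the HIPP mean of A_23_P130194 was 1.32 and just under the fold limit, and without P4 replicate 2, 3 or 4 the P4 mean of A_24_P204358 was 0.80 to 0.81, also under it. The HIPP mean of A_23_P130194 was under the fold limit with mean signals too (1.15), and with background-subtracted signals (1.298). The P4 mean of A_24_P204358 lost its call with slide as a block (0.33, limma adjusted p = 0.388), and was under the fold limit after normexp correction and loess (0.74) and with mean signals (0.81). The gene had 1.19 ± 0.39 with HIPP (2.29-fold, limma adjusted p = 2.71e-06), which is under the 2.5-fold limit, and 1.09 ± 0.27 with P4 (2.12-fold, limma adjusted p = 3.01e-05), which is called. In shCtBP2 cells it had −0.17 ± 0.09 and was not tested.

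The HIPP ratio of PYCR1 differed between slides. HIPP gave a mean of 1.48 on slide 2 and 0.77 on slide 3, where shCtBP2 cells gave −0.18, and when HIPP replicates 4 and 5 were left out together, which was tried once their ratios were known, the HIPP mean was called (1.48, limma adjusted p = 1.87e-06). With slide as a block the P4 value was 0.66 (limma adjusted p = 0.0531) and was no longer called, and that of HIPP was 1.16 (limma adjusted p = 3.92e-05). Without the filter on the interquartile range, the difference from shCtBP2 was 1.36 for HIPP (limma adjusted p = 5.99e-05) and 1.25 for P4 (limma adjusted p = 0.000455). Slide as a block, with the filter, lowered these differences to 0.95 and 0.45, and they were not tested there. ALDH18A1, the enzyme at the start of proline synthesis, did not follow. It gave −0.24, −0.38, −0.07, −0.02 and 0.04 in shCtBP2 cells, −0.03, −0.08, −0.13, 0.09 and 0.32 with HIPP, and 0.05, −0.19, 0.15, 0.57 and 0.50 with P4. The treatments overlapped, and with P4, where it was tested, the mean of 0.22 ± 0.32 did not pass (limma adjusted p = 0.145), though it did with the replicate number as a block (limma adjusted p = 0.0465). Its probe lies on chromosome 10 (hg17, 97356127 to 97356186, minus strand).

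GPT2, the mitochondrial alanine aminotransferase, was higher with both compounds, but its probes differed with HIPP. Both lie on chromosome 16 (hg17, plus strand), A_24_P193648 from 45515840 to 45515899 and A_23_P37892 from 45522269 to 45522328. Probe A_24_P193648 gave −0.08, −0.06, −0.05, −0.26 and −0.30 in shCtBP2 cells, 1.69, 2.10, 1.75, 1.78 and 1.57 with HIPP and 1.30, 1.73, 1.31, 1.76 and 1.60 with P4. Probe A_23_P37892 gave 0.16, 0.19, 0.14, 0.42 and 0.28, then 0.07, 0.34, −0.25, 1.18 and −0.30, and then 2.04, 0.79, 1.07, 1.90 and 1.48. Every P4 array was high with both probes, and every HIPP array was high with the first probe, whereas with the second 4 of the 5 HIPP arrays lay within or below the range of the shCtBP2 arrays. The means with HIPP were thus 1.78 ± 0.20 (limma adjusted p = 6.39e-09) and 0.21 ± 0.60 (not tested), and with P4 1.54 ± 0.22 (limma adjusted p = 1.42e-07) and 1.46 ± 0.53 (limma adjusted p = 9.59e-05). The gene had 0.99 ± 0.35 with HIPP (1.99-fold, limma adjusted p = 8.33e-06), under the limit of 2.5, 1.499 ± 0.27 with P4 (2.83-fold, limma adjusted p = 1.01e-06), which is called, and 0.05 ± 0.03 in shCtBP2 cells. After normexp correction and loess the HIPP mean of A_24_P193648 was 1.17 (limma adjusted p = 3.86e-06), under the limit of 2.5-fold. Without the interquartile range filter the gene's difference from shCtBP2 passed for HIPP (0.95, limma adjusted p = 0.000717) and for P4 (1.45, limma adjusted p = 9.03e-05). The HIPP difference depends on the probe: with the brightest probe alone, A_23_P37892, it turned to −0.030 ± 0.28 (SE), near 0, and was not tested. That of P4 was 1.22 with this probe (limma adjusted p = 0.0105). With mean signals the HIPP difference of the gene was 0.48 and did not pass (limma adjusted p = 0.156).

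**Figure D3:**
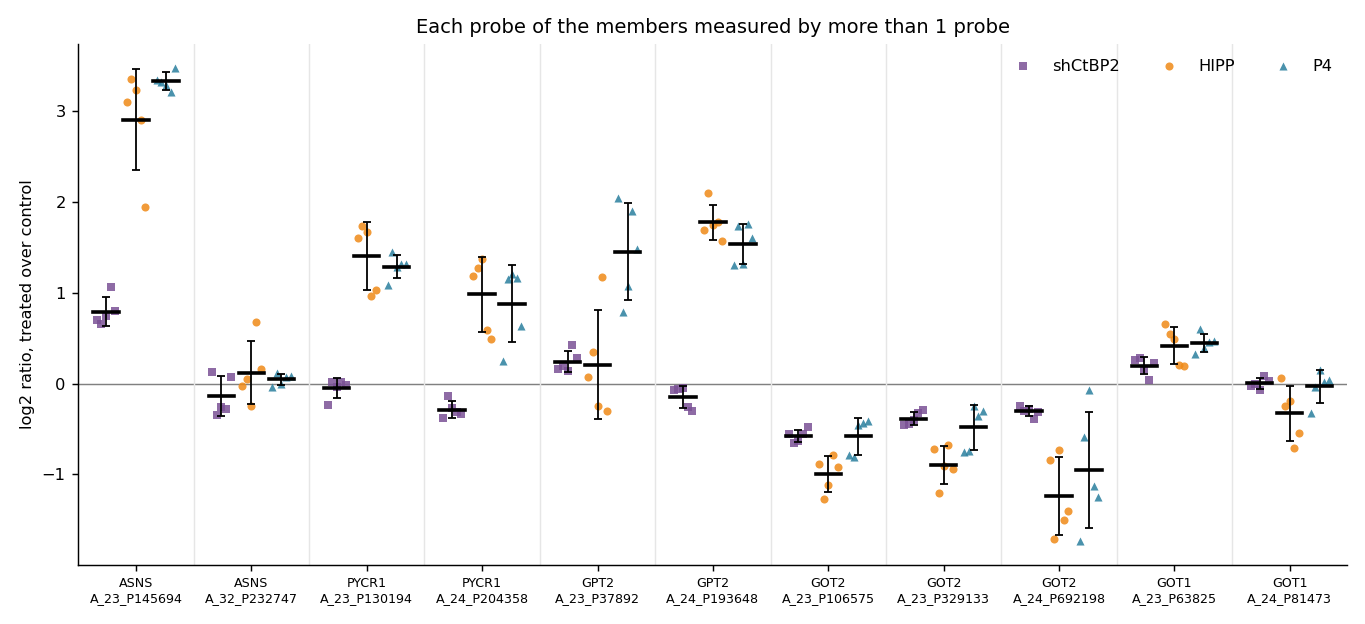
Log2 ratio of treated over control signal (vertical axis) for each probe of the 5 enzymes that have more than 1, by treatment. Points are arrays, bars the mean and SD of 5 arrays. The RefSeq probe of ASNS (A_23_P145694) lies above 0 on all 15 arrays while the clone probe scatters around 0, the GPT2 probes part with HIPP (means 0.21 and 1.78), and all 3 GOT2 probes lie below 0.

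GOT2, the mitochondrial aspartate aminotransferase, was the 1 enzyme lower in all 3 treatments. Its log2 ratios were −0.42, −0.47, −0.44, −0.42 and −0.36 in shCtBP2 cells, −0.82, −1.40, −0.92, −0.99 and −1.09 with HIPP and −1.09, −0.71, −0.26, −0.64 and −0.66 with P4. All 15 were below 0, and the shCtBP2 and HIPP arrays did not overlap. A ratio below 0 on 5 of 5 arrays was found among all genes for 15.4% (shCtBP2), 20.4% (HIPP) and 15% (P4). The means were −0.42 ± 0.04 (limma adjusted p = 0.0162), −1.04 ± 0.22 (limma adjusted p = 1.63e-06) and −0.67 ± 0.30 (limma adjusted p = 0.000312), or 74.6, 48.6 and 62.7% of the control signal. None reached the fold limit of its treatment, and in shCtBP2 cells the mean missed the adjusted limit without replicate 2 (limma adjusted p = 0.056) or replicate 4 (limma adjusted p = 0.0518). The fall was larger with HIPP than in shCtBP2 cells by 0.62 ± 0.15 (SE, limma adjusted p = 0.00633), and the difference between P4 and shCtBP2 was −0.25 ± 0.15 (SE, limma adjusted p = 0.326). With slide as a block the mean with HIPP still passed (−1.04, limma adjusted p = 0.000291), while those of shCtBP2 (−0.44, limma adjusted p = 0.182) and P4 (−0.65, limma adjusted p = 0.0916) and the difference between HIPP and shCtBP2 (−0.60, limma adjusted p = 0.12) did not. Within slide 3 the ratios were −1.04 with HIPP and −0.44 in shCtBP2 cells. With mean signals not corrected for background, shCtBP2 (−0.27, limma adjusted p = 0.324) and P4 (−0.46, limma adjusted p = 0.0902) did not pass.

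The 3 probes of GOT2 on chromosome 16 (hg17, minus strand) had the same sign in each treatment. A_23_P106575 (57298908 to 57298967) and A_23_P329133 (57298867 to 57298926) share 19 bases, and A_24_P692198 (57307489 to 57307543) lies apart. Their means were −0.58, −0.39 and −0.31 in shCtBP2 cells, −0.99, −0.89 and −1.24 with HIPP and −0.58, −0.48 and −0.95 with P4. The last of these, 1.93-fold lower, was the 1 probe of GOT2 called (limma adjusted p = 0.00167). The shCtBP2 mean of A_23_P106575 lay just under the 1.5-fold limit and passed it in other settings, as lower, after normexp correction and loess (−0.59, limma adjusted p = 0.00018), with slide as a block (−0.77, limma adjusted p = 0.0188) and without shCtBP2 replicate 5 (−0.5999, limma adjusted p = 0.00437). With mean signals it missed the adjusted limit as well (−0.38, limma adjusted p = 0.228). Of the 15 probes of the 9 genes taken singly, 1 of 12 tested was called for shCtBP2, 3 of 10 for HIPP and 6 of 14 for P4, beside 6.91%, 8.45% and 9.51% of all probes tested.

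GOT1, the cytosolic counterpart of GOT2, moved little. It gave 0.12, 0.14, 0.05, 0.06 and 0.13 in shCtBP2 cells, 0.36, 0.15, 0.15, −0.25 and −0.17 with HIPP and 0.00, 0.28, 0.27, 0.24 and 0.25 with P4. The P4 mean of 0.21 ± 0.12 did not pass (limma adjusted p = 0.086), and the other treatments were not tested. Its probes lie close together on chromosome 10 (hg17, minus strand), A_23_P63825 from 101147215 to 101147274 and A_24_P81473 from 101146991 to 101147050. The first passed the adjusted limit with HIPP (0.42 ± 0.21, limma adjusted p = 0.000817) and with P4 (0.45 ± 0.10, limma adjusted p = 0.00116), and the second had −0.33 ± 0.30 and −0.03 ± 0.18.

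Glutaminase GLS2, glutamine synthetase GLUL and glutamate dehydrogenase GLUD1 had small ratios, or in the case of GLS2 ratios from dim signals. GLS2 (hg17, chromosome 12, 55152187 to 55152246, minus strand) gave −0.45, −0.35, −0.48, −1.24 and −0.92 in shCtBP2 cells, 0.11, 0.79, 0.66, 1.29 and 0.46 with HIPP and −0.50, 0.01, 0.91, −1.47 and −0.12 with P4. Its signal was dim, well above background on 1, 5 and 2 of the 5 treated channels and on 2, 4 and 3 of the 5 control channels, for shCtBP2, HIPP and P4 in turn. The shCtBP2 and HIPP arrays did not overlap, and the P4 arrays spanned both. The means were −0.69 ± 0.38 (limma adjusted p = 0.0823), 0.66 ± 0.43 (limma adjusted p = 0.0395) and −0.23 ± 0.86 (limma adjusted p = 0.484). The HIPP mean missed the adjusted limit when HIPP replicate 2, 3, 4 or 5 was left out (limma adjusted p = 0.0644 to 0.149), and the shCtBP2 mean was called without P4 replicate 3 (limma adjusted p = 0.0418) or 4 (limma adjusted p = 0.035). The difference between HIPP and shCtBP2 was 1.35 ± 0.35 (SE, limma adjusted p = 0.0103), but 0.22 after normexp correction and loess (limma adjusted p = 0.0456) and 0.33 with mean signals (limma adjusted p = 0.0724). Under these settings the HIPP mean was 0.11 and 0.14 and the shCtBP2 mean −0.10 and −0.19, and none passed. Neither the HIPP mean (0.54, limma adjusted p = 0.234) nor this difference (1.27, limma adjusted p = 0.14) passed with slide as a block, and without HIPP replicates 4 and 5 together the difference did not pass (1.21, limma adjusted p = 0.0586).

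GLUL (hg17, chromosome 1, 179084394 to 179084453, minus strand) gave −0.20, −0.36, 0.24, 0.59 and 0.62 in shCtBP2 cells, 0.39, 0.10, 0.67, 0.20 and 0.36 with HIPP and 0.26, −0.10, 0.75, 0.59 and 0.67 with P4. In shCtBP2 cells the arrays of slide 3 were below 0 and those of slide 4 above. The P4 mean of 0.43 ± 0.35 passed the adjusted limit (1.35-fold, limma adjusted p = 0.0444). It did not pass with slide as a block (0.73, limma adjusted p = 0.0852) or with background-subtracted signals (0.40, limma adjusted p = 0.0678). GLUD1 (hg17, chromosome 10, 88801006 to 88801065, minus strand) gave −0.10, −0.23, 0.27, 0.21 and 0.21, then −0.12, −0.02, 0.13, 0.50 and 0.52, and then 0.45, −0.15, 0.47, 0.60 and 0.71. The 3 treatments overlapped, and only the P4 mean of 0.42 ± 0.34 passed (1.33-fold, limma adjusted p = 0.0255). The annotation lists the mRNA of GLUD2 for this probe too, so the transcripts cannot be told apart. Its P4 mean with slide as a block was 0.97 (limma adjusted p = 0.0187) and was called. Without P4 replicate 3, 4 or 5 neither GLUL nor GLUD1 passed. Leaving out shCtBP2 replicate 3 or HIPP replicate 1, 2 or 5, which share the estimate of the spread, also took GLUL past 0.05 (limma adjusted p = 0.0504 to 0.0553). For both genes the difference between P4 and shCtBP2 was not past the limit (0.26 ± 0.22, limma adjusted p = 0.498, and 0.34 ± 0.19, limma adjusted p = 0.269, with SEs).

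In all, 4 of the 9 genes were tested between HIPP and shCtBP2, and the ratios of 3 differed (ASNS and GLS2 higher, GOT2 lower, with GLS2 mostly not well above background in shCtBP2 cells), beside 26.3% of the 24964 genes tested in both (12.2% higher, 14.1% lower). Between P4 and shCtBP2 5 were tested and 1 differed (ASNS, higher), beside 12.1% of 24997 (6.15% higher, 5.96% lower). Both differences share the shCtBP2 arrays. Without the interquartile range filter, which had kept GPT2 and PYCR1 out, the counts were 5 and 3 of 9, and with slide as a fixed block they were 1 (ASNS) and 0.

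Outside the 9 genes, the list with the most calls was that of ATF4 and other genes of the amino acid response, chosen with its behaviour in these data known. Of its 10 genes, all tested with the compounds and 8 of them in shCtBP2 cells, 6 were called higher with HIPP, 8 with P4 and 1 in shCtBP2 cells, and 0 lower in any treatment, with medians of 1.48, 1.26 and 0.29, beside 3.43%, 4.29% and 3.34% of all genes called higher. ATF3, a stress-induced transcription factor, had 2.20 ± 0.57 with HIPP and 1.07 ± 0.37 with P4. SESN2, a leucine sensor that restrains mTORC1, had 1.99 ± 0.26 and 1.70 ± 0.38. TRIB3, a pseudokinase induced by ATF4, had 1.46 ± 0.57 and 1.84 ± 0.45. CHAC1, which degrades glutathione, had 1.49 ± 0.34 and 1.79 ± 0.50, and with 0.64 ± 0.25 it was the gene called in shCtBP2 cells. All of these values were called, and none of the 4 genes had a limma adjusted p above 0.0187 in a treatment where it was called. After normexp correction and loess the HIPP values of ATF3 (1.03), SESN2 (1.05), TRIB3 (1.26) and CHAC1 (1.31) were below the fold limit. With mean signals all 4 were below it as well, at 1.12, 1.31, 1.21 and 1.19 in the same order, and TRIB3 with HIPP was also below it without HIPP replicate 3 (1.297). ATF3 with P4 was under the 1.8-fold limit after normexp correction (0.73) and with mean signals (0.70). With slide as a block ATF3 with P4 (0.24, limma adjusted p = 0.661) and CHAC1 in shCtBP2 cells (0.52, limma adjusted p = 0.163) lost their calls, the latter also without shCtBP2 replicate 3, 4 or 5 (limma adjusted p = 0.0599 to 0.0758), after normexp correction (0.55) and with background-subtracted signals (0.57), both under the fold limit, with mean signals (0.71, limma adjusted p = 0.104) and with the Student's test of the methods (adjusted p = 0.392). In shCtBP2 cells ATF3 (0.26 ± 0.73) was called with slide as a block (1.13, limma adjusted p = 0.0371) but had −0.042 with background-subtracted signals, and TRIB3 (0.35 ± 0.16) was called with its brightest probe (0.68, limma adjusted p = 0.00572).

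Among 19 other enzymes of glutamate, proline, ornithine and asparagine metabolism, of which 15 were tested in shCtBP2 cells and 16 with each compound, 1 was called in each treatment, a share near that of all genes (6.57% for shCtBP2, 7.05% for HIPP, 8.46% for P4). OAT, ornithine aminotransferase, which joins ornithine to the route to proline, was lower with HIPP, at −1.25, −1.62, −1.62, −2.08 and −1.48 (mean −1.61 ± 0.30, limma adjusted p = 3.12e-08). With P4 it had −0.55 ± 0.19 and in shCtBP2 cells −0.10 ± 0.11. ASS1, argininosuccinate synthase, which uses aspartate, was higher with P4 (1.05 ± 0.16, limma adjusted p = 0.000174) and GAD1, glutamate decarboxylase, lower in shCtBP2 cells (−0.62 ± 0.23, limma adjusted p = 0.0163). Both were higher with HIPP and passed the adjusted limit there without a call. ASS1 had 0.72 ± 0.56 (limma adjusted p = 0.00131), and GAD1 had 0.81 ± 0.46 (limma adjusted p = 0.000596), opposite in sign to shCtBP2 cells. The calls of ASS1 with P4 and of GAD1 in shCtBP2 cells were lost with slide as a block (0.63, limma adjusted p = 0.16, and −0.82, limma adjusted p = 0.0926). That of GAD1 was also lost without shCtBP2 replicate 1 or 2 (limma adjusted p = 0.0519 to 0.0722) and with its brightest probe (−0.305, limma adjusted p = 0.158). After normexp correction GAD1 had −0.21 (limma adjusted p = 0.153) and ASS1 0.74, and with mean signals GAD1 had −0.25 (limma adjusted p = 0.251) and ASS1 0.80, both ASS1 values being under the fold limit. At the adjusted limit alone 7 rose and 5 fell with HIPP, 6 rose and 4 fell with P4, and 2 rose and 2 fell in shCtBP2 cells, where of all genes 48.7%, 31.9% and 13.5% passed. The medians of the list were 0.27, 0.11 and 0.06.

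Of 9 enzymes that use the amide of glutamine, GFPT1, the entry step of hexosamine synthesis, was called higher with HIPP (1.802 ± 0.34, limma adjusted p = 1.06e-07) and P4 (1.29 ± 0.39, limma adjusted p = 1.24e-05), and had −0.41 ± 0.06 in shCtBP2 cells. CAD, which opens pyrimidine synthesis, was called lower in shCtBP2 cells (−0.64 ± 0.13, limma adjusted p = 0.00221), a call lost after normexp correction (−0.57, under the fold limit) and with mean signals (−0.47, limma adjusted p = 0.0823). No other gene of the list was called, so that 1 of 5 tested was called in shCtBP2 cells and 1 of 6 with each compound, beside 6.57%, 7.05% and 8.46% of all genes for shCtBP2, HIPP and P4. Its medians were −0.06 with HIPP, −0.06 with P4 and −0.13 in shCtBP2 cells. Of 7 partners of the malate-aspartate shuttle and carriers of glutamate, 0 were called. In limma, 1 rose and 2 fell with each compound at the adjusted limit, of 4 tested with HIPP and 5 with P4, and 0 of 4 passed it in shCtBP2 cells, beside 48.7%, 31.9% and 13.5% of all genes.

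**Figure D4:**
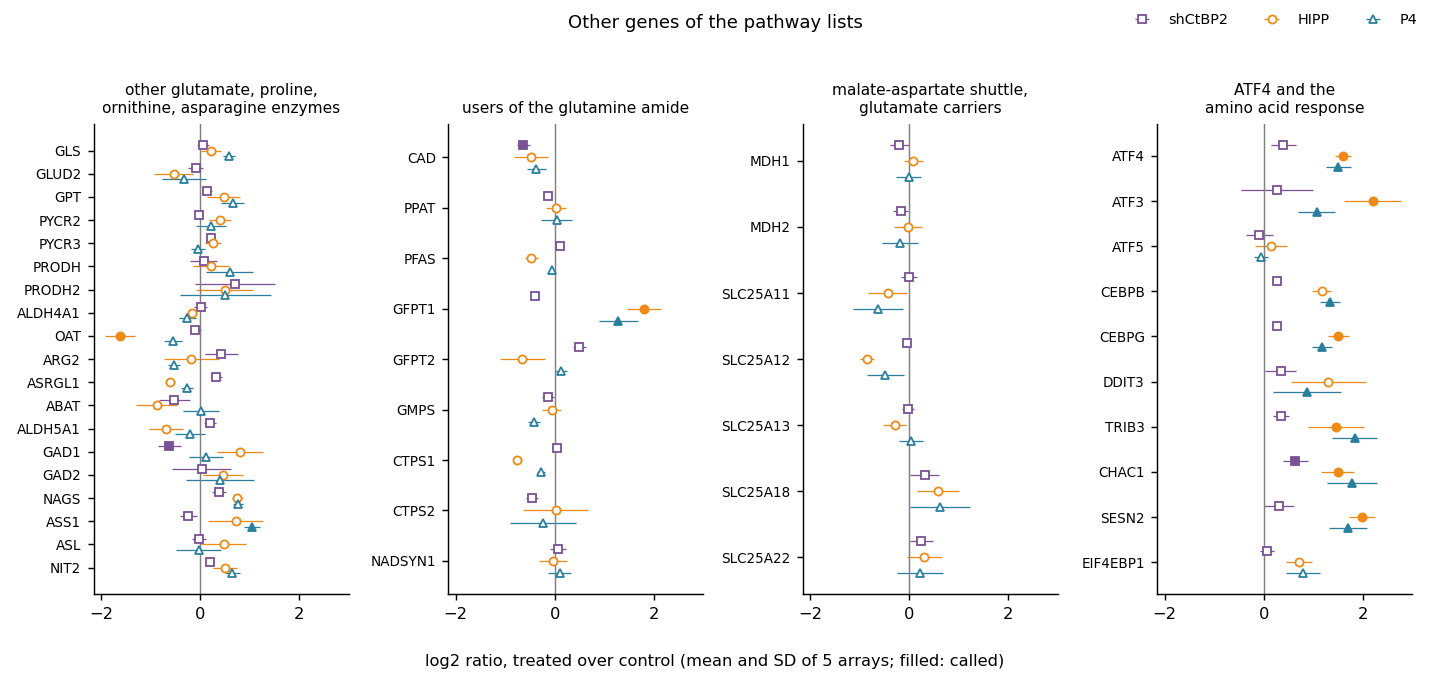
Mean log2 ratio (horizontal axis, with SD of 5 arrays) of the other genes of 4 lists for shCtBP2 (squares), HIPP (circles) and P4 (triangles), filled where called. The called genes of the amino acid response lie at 0.64 or above, while in the other lists 5 genes are called in any treatment.

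For the members called in at least 1 treatment, the genes with the most similar ratios over the 15 arrays were sought among 11934 genes with a current symbol that were well above background in both channels on every array. Likeness was measured by the root mean square difference of the log2 ratios. For ASNS averaged over both probes, of which the clone probe stayed near 0, ATF4 was nearest (0.25), followed by WARS1 (0.27) and PCK2 (0.30). ATF4 had means of 0.40 for shCtBP2, 1.60 for HIPP and 1.51 for P4. SLC7A5 was nearest to GPT2 (0.21), then C1QTNF12 (0.27) and PXK (0.28), and MOCOS to PYCR1 (0.19), then SNTB1 (0.21) and OSGIN1 (0.23). For the RefSeq probe of ASNS alone, a choice made after the probes were seen to differ, the nearest were NUPR1 (0.42), HMGCS1 (0.67) and CTH (0.68), and ATF4 was not among them. NUPR1 had means of 0.69, 2.89 and 2.85.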

How the data were processed

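RNA of treated (Cy5) and control (Cy3) MDA-MB-231 cells was hybridized to 15 Agilent two-colour arrays, 5 per treatment. The authors corrected background and dye differences in Agilent Feature Extraction 9.5 and deposited signal intensities per spot, and the deposited series table holds log10 ratios of the same arrays. Probe positions are those of the array annotation (hg17). Symbols and promoters came from RefSeq (GRCh38.p14), and 29095 of 43376 gene spots matched a current symbol.

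Spots marked as non-uniform or as population outliers were left out. Log2 ratios were averaged over spots, then over the probes of a gene. A gene needed values on at least 3 of 5 arrays, and the 11% with the lowest interquartile range of a treatment were not tested. Ratios were tested against 0, and differences from shCtBP2, with limma 3.58.1 (R 4.3.3), 15 arrays in 1 fit and Benjamini-Hochberg adjustment over all genes; the fit was tested on simulated data. A ratio tested against 0 leaves out the spread between control samples if arrays shared a control extract. The number of arrays limits the precision.

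The members and gene lists were chosen with earlier results of these data known. Named outside the members were, per list, at most 4 called genes with the largest absolute ratio, and the 3 genes nearest to each called member. Same-numbered shCtBP2 and P4 arrays deviated together (0.14 to 0.35, from the data and not the labels), and the number as a block was an alternative. Other alternatives were other signals and background corrections, filters, thresholds, probe choices, blocks, the methods' Student's test, the series table and leaving out each array.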

Additional observations from a re-analysis of the deposited data

Results flagged for a closer look

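Among 60 sets of 5 arrays, those of the 9 genes and of the probes of genes with more than 1, 2 held an array that stood far from the other 4, where chance gives about 1 in 20. GOT1 had a log2 ratio of −0.0016 on P4 replicate 1, beside 0.24 on the next array. PYCR1 probe A_23_P130194 had −0.24 on shCtBP2 replicate 1, beside −0.04 on the next.

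The response to a compound differed from that of shCtBP2 cells, by the test of the difference in limma, for the following. Between HIPP and shCtBP2 the difference of log2 ratios was 1.35 for GLS2, −0.62 for GOT2 and 1.19 for ASNS. The GOT2 probes gave −0.42 (A_23_P106575), −0.51 (A_23_P329133) and −0.93 (A_24_P692198), the RefSeq probe of ASNS 2.12, and the PYCR1 probes 1.45 (A_23_P130194) and 1.27 (A_24_P204358). Between P4 and shCtBP2 it was 1.36 for ASNS, 2.54 for its RefSeq probe, 1.22 for GPT2 probe A_23_P37892, and 1.34 and 1.17 for the PYCR1 probes in the same order. With slide as a block the P4 differences of the PYCR1 probes were 0.75 (limma adjusted p = 0.122) and 0.15 (limma adjusted p = 0.838), and the HIPP differences of PYCR1 probe A_24_P204358 (0.80, limma adjusted p = 0.0597) and GOT2 probe A_23_P106575 (−0.24, limma adjusted p = 0.391) did not pass either.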

How the results depend on the processing

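Of the values recomputed under other settings, 3142 kept their direction and their call status or moved within the spread, 66 lost a call and 69 gained one. For differences, the adjusted limit took the place of the call. Another 69 counts or values without a test moved further, and 46 turned sign, none of them a called value. Ratios that kept their sign and call status but crossed the adjusted limit alone count among the 3142. An example is GOT2 for shCtBP2, at limma adjusted p = 0.056 when replicate 2 was left out. Leaving out 1 array at a time gave 0 to 3 members past the adjusted limit in shCtBP2 cells, 0 to 1 called there, and 1 to 2 that differed between P4 and shCtBP2. With each probe as a feature, 1 member was called in shCtBP2 cells and 3 with HIPP, 3 differed between P4 and shCtBP2, and 6 other pathway genes were called in shCtBP2 cells. After normexp correction and loess, 0 and 4 pathway genes were called in shCtBP2 cells and with HIPP, and 5 and 3 members differed from shCtBP2 with HIPP and P4, as they did with median-centred background-subtracted signals and without the interquartile range filter. With mean signals, 0 members passed and 1 pathway gene was called in shCtBP2 cells, 3 were called with HIPP, and 3 members differed between P4 and shCtBP2. With centred processed signals 1 member passed in shCtBP2 cells. With the brightest probe, 1 and 2 members were called in shCtBP2 cells and with HIPP, and 3 differed for P4. With slide as a fixed block, 0 and 3 members passed in shCtBP2 cells and with P4, and 1 and 0 differed from shCtBP2. With the arrays of 1 treatment only, 1 member was called in shCtBP2 cells. The methods' Student's test passed 0 members and called 1 pathway gene there. A fold limit of 1.5 called 5 members and 20 pathway genes with HIPP and 17 with P4. With no fold limit, 2, 5 and 6 members and 8, 29 and 25 pathway genes were called. Without HIPP replicates 4 and 5, 2 members were called with HIPP. Other fold limits, fewer arrays and more genes tested account by construction for their own counts, and for the other settings the cause was not tested.

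Before and after they turned, these values were 0.43 or less in size, except the HIPP difference of GPT2, which was 0.95 before. After normexp correction they were GLS2 with P4 (0.022) and the HIPP difference of GLUL (−0.012). With background-subtracted signals they were ATF3 in shCtBP2 cells (−0.042), GOT1 (−0.064) and ALDH18A1 (−0.11) with HIPP, the HIPP difference of GLUD1 (−0.0015) and the P4 difference of GOT2 probe A_23_P106575 (0.061). With mean signals they were ALDH18A1 (0.049), PYCR1 (0.024), its probe A_23_P130194 (0.17) and OAT (0.12) in shCtBP2 cells, GLUD1 (−0.068), GOT1 (−0.20) and ALDH18A1 (−0.25) with HIPP, the HIPP differences of GLUL (−0.057), GLUD1 (−0.33) and ALDH18A1 (−0.30), and the P4 difference of the GOT2 probe (0.029). With centred processed signals they were GOT1 (−0.0084) and ALDH18A1 (−0.022) with HIPP, and with the brightest probe the HIPP differences of GOT1 (0.22) and GPT2 (−0.030). The slide block turned GLUL (−0.11), GLUD1 (−0.41), GPT2 (−0.014), PYCR1 (0.21, and its probes 0.24 and 0.18), OAT (0.064) and ASS1 (0.15) in shCtBP2 cells, GOT1 with HIPP (−0.023), and the P4 differences of GOT1 (−0.31) and the GOT2 probe (0.43). Leaving out HIPP replicates 4 and 5 turned GLUD1 (−0.0014) and ALDH18A1 (−0.080) with HIPP and the HIPP differences of GLUD1 (−0.074) and GOT1 (0.12). Over single left-out arrays, GOT1 with HIPP ran from −0.030 to 0.12, ALDH18A1 with HIPP ran from −0.038 to 0.075, GLS2 with P4 ran from −0.52 to 0.075, GAD1 with P4 ran from −0.019 to 0.22, the HIPP difference of GOT1 ran from −0.13 to 0.022 and the P4 difference of the GOT2 probe ran from −0.048 to 0.051.

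Arrays with the same replicate number correlated in their deviations at −0.03 to 0.47, and 7 of 15 arrays were closest to their own number. All 5 pairs were above 0.1 between shCtBP2 and P4 (0.14 to 0.35), but not between HIPP and either. With the replicate number as a block, 0, 1 and 3 members were called and 2, 5 and 7 passed the adjusted limit for shCtBP2, HIPP and P4 in turn, and 3 and 1 differed from shCtBP2. Pairing changed the side of the adjusted limit for 1 of the values reported, ALDH18A1 with P4 (0.22, limma adjusted p = 0.0465). Signal over background limits GLS2.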
